A study of Homo sapiens with 12 samples.

Results

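Metallothioneins and the proteins that set cellular zinc were followed in IOSE80 cells, an immortalised line made from normal human ovarian epithelium, after 28 days of exposure. The set held 9 genes: the metallothioneins MT1E, MT1F, MT1G, MT1X and MT2A, the transcription factor MTF1, the exporter SLC30A1, and the importers SLC39A10 and SLC39A14. A locus was taken where its deposited gene name held the gene, and 7 of the 9 genes matched a locus, 1 each, of 30574 loci listed per library. MT1F and MT1G matched no locus by name and were not analysed here. MT1E lay below the limit on low values, so 6 genes were among the 12182 loci tested.

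The study asked about injury of ovarian epithelial cells by bisphenol A (BPA), a monomer of polycarbonate plastic that can weakly mimic oestrogen, at levels that people meet. Cells had 0.1% DMSO (3 libraries), BPA at 0.25 nM (3 libraries), BPA at 2500 nM (3 libraries) or E2, the usual short name of estradiol (2 libraries), each for 28 days. E2 replicate 3 was not analysed here, and the dose of E2 and the solvent of BPA and E2 are not given in the sources used here. All groups share 1 immortalised line. The labels do not tell whether replicates came from cultures kept apart, so each p-value rests on library-to-library spread that may be partly or wholly technical.

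Metallothioneins are small, cysteine-rich proteins that bind zinc, copper and cadmium, and they buffer free zinc in the cytosol. MTF1 is the zinc-sensing transcription factor: when zinc rises, it binds metal response elements in promoters and turns on the metallothionein genes and SLC30A1. Zinc transporters fall into a pair of families, the ZnT proteins (SLC30), which move zinc out of the cytosol, and the ZIP proteins (SLC39), which bring it in.

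The metal response element is the DNA feature that links these genes, so the bases before the gene starts are shown for the metallothioneins with a tested locus and for SLC30A1. They are the 250 bases before the RefSeq gene start, from RefSeq on GRCh38.p14, written 5′ to 3′ on the gene's strand, and such windows were used for 5 of the 9 genes. Capitals mark matches to the core letters of the element, TGCACNC or TGCGCNC, on either strand. A match on the reverse strand appears as its reverse complement.
MT2A, chr16:56608334-56608583, + strand: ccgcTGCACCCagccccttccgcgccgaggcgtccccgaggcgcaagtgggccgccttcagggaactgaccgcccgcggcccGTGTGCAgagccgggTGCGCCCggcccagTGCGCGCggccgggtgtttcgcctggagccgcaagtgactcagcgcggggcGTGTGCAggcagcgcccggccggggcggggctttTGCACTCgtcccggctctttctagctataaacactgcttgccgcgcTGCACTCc
MT1X, chr16:56682220-56682469, + strand: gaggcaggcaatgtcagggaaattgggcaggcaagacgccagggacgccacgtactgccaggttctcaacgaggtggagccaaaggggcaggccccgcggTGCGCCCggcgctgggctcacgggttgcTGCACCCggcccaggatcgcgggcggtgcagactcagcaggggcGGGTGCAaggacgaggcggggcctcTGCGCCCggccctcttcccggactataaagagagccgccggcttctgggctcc
SLC30A1, chr1:211579162-211579411, - strand: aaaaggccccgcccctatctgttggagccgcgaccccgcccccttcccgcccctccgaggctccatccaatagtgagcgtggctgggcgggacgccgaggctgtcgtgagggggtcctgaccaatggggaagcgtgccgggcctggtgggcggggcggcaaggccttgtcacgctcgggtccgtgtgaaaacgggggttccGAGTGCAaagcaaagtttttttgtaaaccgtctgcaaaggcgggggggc

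The MT2A window held 7 matches, 5 of them forward, between 246 and 2 bases before the start. In MT1X there were 4 matches, 3 forward, between 150 and 47 bases before the start. SLC30A1 had 1 match, on the reverse strand, 49 to 43 bases before the start. The window of MTF1 and both RefSeq windows of SLC39A10 held 0 matches. Both SLC39A10 starts (195656958 and 195657226) lie inside its locus, which begins at 195575977, so the 5′ end of that locus was not searched. The other importer, SLC39A14, was not searched. Of 35116 RefSeq windows of this length, 24.8% held at least 1 match, 0.37% at least 4 and 0.0313% (11 windows) at least 7. The metallothionein windows are thus dense in these letters, while a single match as in SLC30A1 is common. The RefSeq windows compared include those of these genes and were not matched for G and C. A match is a description of the letters and not a measured binding site. The 3 windows are rich in G and C (73.2% in MT2A, 70.0% in MT1X and 66.4% in SLC30A1). The start of each is the 5′ end of the gene's locus in the deposited files. GENCODE 29 places it elsewhere: it begins SLC30A1 downstream, at 211578742, and no transcript of it holds the first bases after the start used here, while it begins MT2A upstream, at 56608199, and MT1X at 56682424. Match positions therefore hold for the RefSeq starts only.

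**Figure D1:**
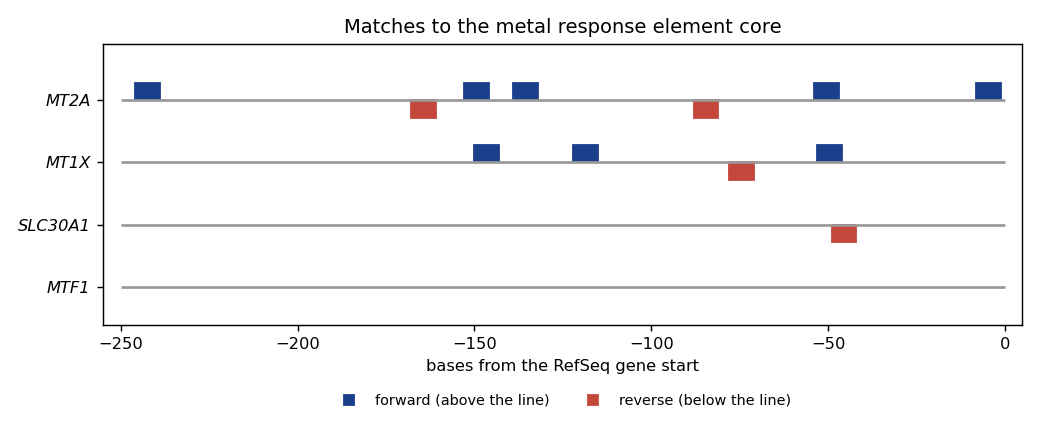
Positions of matches to the metal response element core in the 250 bases before the RefSeq gene start of MT2A, MT1X, SLC30A1 and MTF1; the x axis is distance from the start in bases. Blocks above a line are forward matches and blocks below it reverse ones: 7 in MT2A, 4 in MT1X, 1 in SLC30A1 and 0 in MTF1.

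The libraries were alike in their correlations over loci. Total FPKM (fragments scaled to transcript length and library size) lay between 206719 and 213663. That scaling tends to bring totals together, so they say little on likeness, and read depth is unknown. Between 21223 and 23696 loci per library were above 0. Correlated with each of the other libraries over loci, a library had a median r of 0.979 to 0.982, but E2 replicate 2 had 0.976. Mitochondrial loci took 13.6% to 14.3% of FPKM in DMSO, 12.6% to 12.7% at the low BPA dose, 12.9% to 13.6% at the high dose and 12.3% to 14.0% with E2. Of 12 markers of ovarian surface epithelium, 4 had a mean of at least 1 FPKM (ALDH1A1 109, KRT18 22.8, NR2F2 3.19, KRT8 1.34), while WT1, GATA4 and BNC1 were at or below 0.02 FPKM in every library, as was the epithelial cadherin CDH1. Lower means were also found for KRT7 (0.191), KRT19 (0.153), CALB2 (0.0491), MSLN (0.0445) and UPK3B (0.00727). Of the junction genes, EPCAM (0.352) and CLDN4 (0.04) were low too. The sum of the 12 ovarian markers was 122 to 127 FPKM with BPA 2500 nM and 134 to 151 in DMSO. Most of that sum is ALDH1A1 (94.98 to 120.77 FPKM over all libraries), so it is no reading of the 12 markers as a set. What part these differences in mitochondrial share and marker sum have in the results for BPA was not tested. Of 7 mesenchymal or fibroblast markers, 3 had a mean of at least 1 FPKM (VIM 688, COL3A1 28.7 and PDGFRA 5.23). The others were CDH2 (0.567), COL1A1 (0.421), COL1A2 (0.0182) and DCN (0.00364). Of other cell types, PTPRC of leukocytes, CDH5 of endothelium and CYP19A1 of granulosa cells reached no more than 0.01 FPKM. The granulosa factor FOXL2 had a mean of 6.78. PDGFRA, the leukocyte gene CD68 (mean 46.0) and the junction gene CLDN7 (19.4) are on loci joined with other coding genes, so these values cannot be assigned to them.

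With 2500 nM BPA, SLC30A1 and MTF1 stood above DMSO and SLC39A10 below it, in every library, and with E2 the first 2 stood above DMSO again. With 0.25 nM BPA, MT1X stood above DMSO and SLC39A10 below it, in every library. None of these differences passed the test over all loci. By limma, with Benjamini-Hochberg adjustment over 12182 loci, 0 of 6 genes were called in each of the 3 comparisons with DMSO. The share of all loci called was 0.0164% for BPA 0.25 nM, 1.3% for BPA 2500 nM and 0.419% for E2. At an unadjusted p under 0.05 there were 1 of 6 genes for BPA 0.25 nM (MT1X), 3 for BPA 2500 nM (MTF1, SLC30A1 and SLC39A10) and 2 for E2 (MTF1 and SLC30A1), beside 9.11%, 17.2% and 15.4% of all loci. Libraries did not overlap in 2, 3 and 2 of the 6 genes, beside 17.1%, 26.6% and 28.4% of all loci. The median log2 change of the 6 genes was 0.10, 0.12 and 0.02, and that of all loci 0.00, -0.03 and -0.01. All these log2 changes are on the log2(FPKM + 1) scale, which understates the change of low genes. The 3 comparisons share the DMSO libraries. In bulk RNA, fewer cells of a type and less RNA per cell cannot be told apart.

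**Figure D2:**
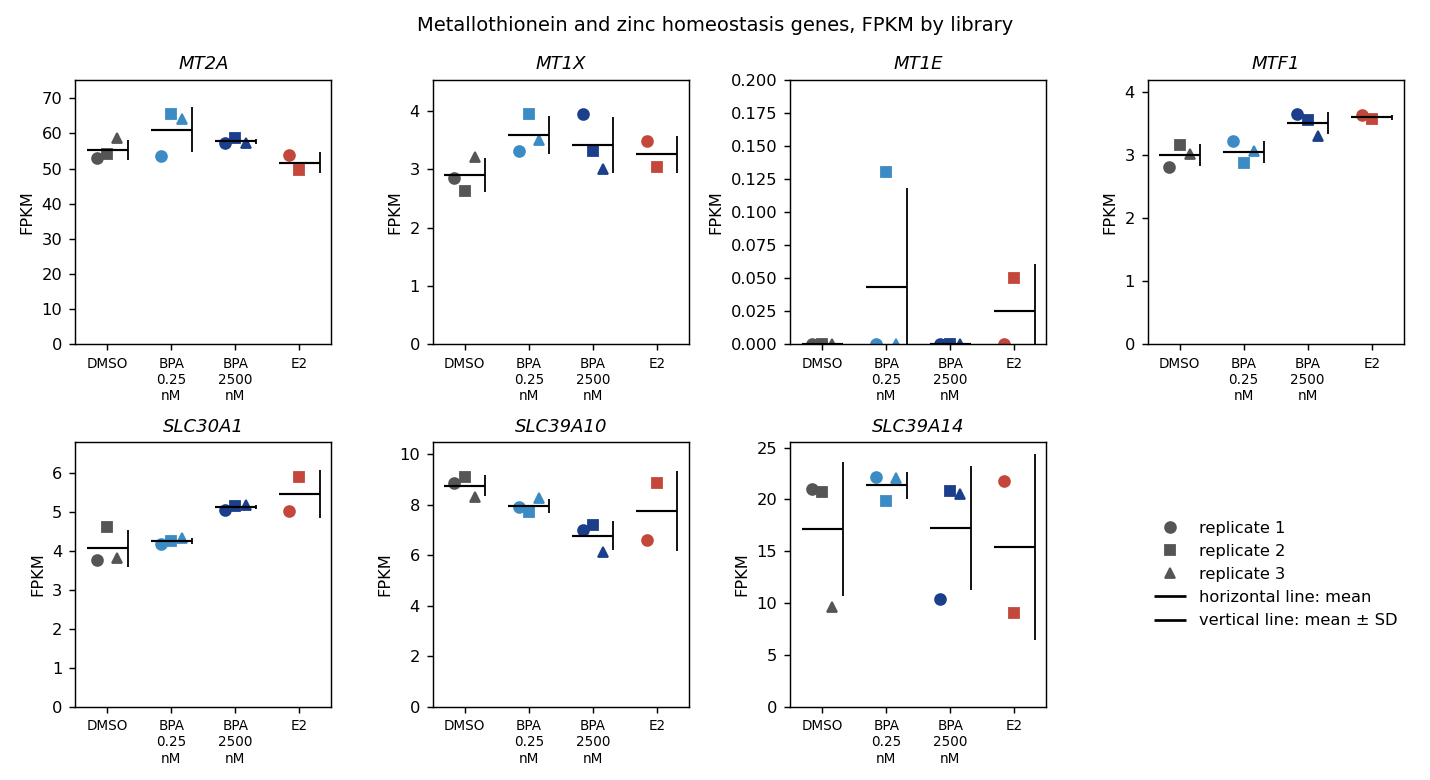
FPKM of the 7 genes with a locus in each of the 11 libraries, by group, on linear axes from 0; marker shapes give the replicate number, horizontal lines the group mean and vertical lines the mean ± SD, drawn only above 0. SLC30A1 and MTF1 are higher with BPA 2500 nM and E2 than in DMSO, and SLC39A14 is near 10 or near 20 FPKM.

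MT2A, the metallothionein made by most cell types, had the highest level of the set, 56.9 ± 4.81 FPKM (SD, n = 11). It is on the forward strand of chromosome 16 at 56608584 to 56609497 (GRCh38). MT2A was at 53.0, 54.1 and 58.7 FPKM in DMSO replicates 1, 2 and 3, and at 53.6, 65.5 and 64.1 with BPA 0.25 nM. With BPA 2500 nM it was at 57.2, 58.6 and 57.4, and with E2 at 53.7 and 49.5. Replicates 2 and 3 of BPA 0.25 nM were the highest libraries and E2 replicate 2 the lowest, and each treatment overlapped DMSO. Against DMSO (55.3 ± 2.98 FPKM), the log2 change was 0.14 ± 0.08 (SE, 95% interval -0.03 to 0.31, adjusted p = 0.622) with BPA 0.25 nM. It was 0.06 (interval -0.11 to 0.23, adjusted p = 0.707) with BPA 2500 nM and -0.10 (interval -0.29 to 0.09, adjusted p = 0.64) with E2. In order of mean level the groups ran from E2 (51.6 ± 3.01, n = 2) through DMSO and BPA 2500 nM (57.7 ± 0.759, n = 3) to BPA 0.25 nM (61.1 ± 6.49, n = 3), and the libraries of neighbours overlapped in each case. Those of E2 and BPA 2500 nM, which are not neighbours, did not.

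MT1X, another zinc and copper binding metallothionein, was far lower, at a mean of 3.30 FPKM. Its locus on chromosome 16, 56682470 to 56688052, runs past the annotated gene end at 56684196, so its value may hold reads beyond the gene. MT1X was at 2.86, 2.63 and 3.21 FPKM in DMSO and at 3.32, 3.95 and 3.51 with BPA 0.25 nM. It was at 3.95, 3.32 and 3.0 with BPA 2500 nM and at 3.49 and 3.04 with E2. All BPA 0.25 nM libraries were above all DMSO libraries, while the other treatments overlapped DMSO. The log2 change with BPA 0.25 nM was 0.24 ± 0.10 (SE, interval 0.02 to 0.45, adjusted p = 0.518). For BPA 2500 nM it was 0.18 ± 0.10 (adjusted p = 0.368) and for E2 0.13 ± 0.11 (adjusted p = 0.618). These last 2 were 0.10 without BPA 2500 nM replicate 1 and 0.05 without E2 replicate 1. The group means ran from DMSO (2.90 ± 0.292) through E2 (3.27 ± 0.318) and BPA 2500 nM (3.42 ± 0.483) to BPA 0.25 nM (3.59 ± 0.323), and the 3 treatments overlapped each other.

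MT1E (chromosome 16, 56625475 to 56627112), of the same gene cluster, was listed at 0 in 9 of 11 libraries. It was at 0.13 FPKM in BPA 0.25 nM replicate 2 and at 0.05 in E2 replicate 2. Metallothionein genes are near-identical in part, so reads can be split between them by the counting. Of 50-base windows in annotated transcripts, 1.58% of those of MT2A and 3.37% of those of MT1X also occur in another gene of 10 of the family. The share was 4.19% for MT1E, 1.22% for MT1F and 16.4% for MT1G. MT2A had the lowest share of the genes with a locus (22 of 1390 windows), but MT1A of the same family had fewer shared windows (17 of 347). The share depends on how much transcript is annotated, so it does not rank how far reads were split. The values of the low members are uncertain.

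Of the 11 other metallothionein genes and pseudogenes listed with the family, MT1A alone had a locus, and 10 matched none by name. MT1A was at 1.57, 1.94 and 1.94 FPKM in DMSO and at 2.27, 3.58 and 2.79 with BPA 0.25 nM. It was at 2.28, 3.25 and 2.28 with BPA 2500 nM and at 2.23 and 1.08 with E2. Every BPA library, at either dose, was above every DMSO library, and the E2 libraries lay on both sides. The log2 change was 0.45 ± 0.18 (adjusted p = 0.518) with BPA 0.25 nM, 0.35 ± 0.18 (adjusted p = 0.364) with BPA 2500 nM and -0.12 (adjusted p = 0.839) with E2. MT1A shares 4.9% of its windows with another gene of the family. Summed over MT2A, MT1X, MT1A and MT1E, metallothionein FPKM was 57.5 to 63.8 in DMSO, 59.2 to 73.1 at the low BPA dose, 62.7 to 65.2 at the high dose and 53.6 to 59.4 with E2. MT2A made up 89.5% to 92.3% of that sum in every library, so the sum follows MT2A.

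MTF1, the metal-sensing regulator of these promoters, lies on the reverse strand of chromosome 1 (37809574 to 37859592). MTF1 was at 2.81, 3.16 and 3.02 FPKM in DMSO and at 3.22, 2.87 and 3.06 with BPA 0.25 nM. With BPA 2500 nM it was at 3.65, 3.56 and 3.31, and with E2 at 3.63 and 3.57. The low BPA dose overlapped DMSO, while all libraries of the high dose and of E2 were above all of DMSO and of the low dose. Against DMSO (3.0 ± 0.176 FPKM), the log2 change was 0.17 ± 0.06 (SE, interval 0.05 to 0.30, adjusted p = 0.17) with BPA 2500 nM. It was 0.20 ± 0.06 (interval 0.06 to 0.35, adjusted p = 0.169) with E2 and 0.02 ± 0.06 (interval -0.11 to 0.15, adjusted p = 0.953) with BPA 0.25 nM. MTF1 had the steadiest values of the set: its SD within groups, 0.06 on the log2 scale, was at percentile 12.4 of all tested loci.

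SLC30A1 (ZnT1) is the plasma membrane exporter that pumps zinc out of the cell, and its locus lies on the reverse strand of chromosome 1 (211571568 to 211579161). SLC30A1 was at 3.78, 4.63 and 3.82 FPKM in DMSO and at 4.19, 4.26 and 4.34 with BPA 0.25 nM. It was at 5.07, 5.15 and 5.19 with BPA 2500 nM and at 5.04 and 5.91 with E2. The low dose fell within the range of DMSO, and the high dose and E2 lay above both. The order of means was DMSO (4.08 ± 0.48), BPA 0.25 nM (4.26 ± 0.0751), BPA 2500 nM (5.14 ± 0.0611) and E2 (5.47 ± 0.615). Only the step from the low to the high BPA dose separated neighbours. The log2 change was 0.28 ± 0.07 (SE, interval 0.11 to 0.44, adjusted p = 0.102) with BPA 2500 nM. For E2 it was 0.35 ± 0.08 (interval 0.17 to 0.54, adjusted p = 0.0839), and for BPA 0.25 nM 0.06 ± 0.07 (interval -0.11 to 0.22, adjusted p = 0.858). Without E2 replicate 2, the library with the lowest correlation with the rest, the E2 change was 0.26 (adjusted p = 0.295). Across the alternative fits the adjusted p ranged from 0.0711 to 0.268 for BPA 2500 nM and from 0.0564 to 0.414 for E2.

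SLC39A10 (ZIP10) is a plasma membrane importer of zinc, on chromosome 2 at 195575977 to 195737702, forward strand. SLC39A10 was at 8.87, 9.10 and 8.30 FPKM in DMSO and at 7.92, 7.71 and 8.25 with BPA 0.25 nM. It was at 7.01, 7.19 and 6.12 with BPA 2500 nM and at 6.61 and 8.85 with E2. Each BPA library was below each DMSO library and each library of the high dose was below each of the low dose, while the 2 E2 libraries lay apart, at the high-dose and the DMSO level. Against DMSO (8.76 ± 0.412 FPKM), the log2 change was -0.33 ± 0.09 (SE, interval -0.54 to -0.12, adjusted p = 0.122) with BPA 2500 nM. For BPA 0.25 nM it was -0.12 ± 0.09 (interval -0.33 to 0.09, adjusted p = 0.737) and for E2 -0.17 ± 0.10 (interval -0.41 to 0.06, adjusted p = 0.487). SLC39A10 passed the threshold for BPA 2500 nM when both E2 libraries were left out (adjusted p = 0.0432), at the same log2 change. Leaving out only 1 of them is in effect the same fit, since a group of 1 library adds nothing to the estimated variance. Without the E2 libraries the calls over all loci also grew, from 158 to 251. The adjusted p of SLC39A10 for BPA 2500 nM ranged from 0.0432 to 0.293 over all alternatives. The E2 change was 0.02 without E2 replicate 1 and -0.36 without E2 replicate 2, so its direction rests on the choice of library.

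SLC39A10 and SLC30A1 move zinc in opposite directions across the plasma membrane, and the ratio of their FPKM, chosen after the values were seen and therefore not tested, put them side by side. The ratio was 1.97 to 2.35 in DMSO and 1.81 to 1.9 with BPA 0.25 nM. It was 1.18 to 1.4 with BPA 2500 nM and 1.31 to 1.5 with E2. No library of the high BPA dose or E2 reached the lowest of DMSO or the low dose, and the high dose and E2 overlapped. The ratio compares RNA levels and is no measure of zinc flux.

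**Figure D3:**
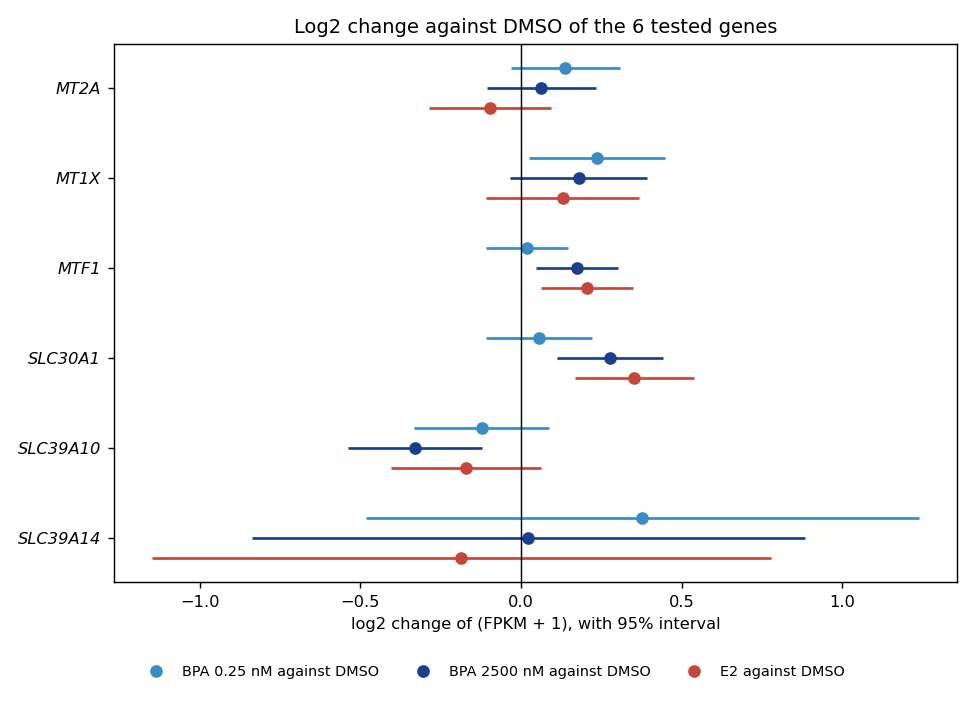
Log2 change against DMSO of the 6 tested genes on the log2(FPKM + 1) scale, with 95% intervals, for BPA 0.25 nM, BPA 2500 nM and E2. Intervals leave out 0 for SLC30A1 and MTF1 (BPA 2500 nM and E2), SLC39A10 (BPA 2500 nM) and MT1X (BPA 0.25 nM), with no adjustment for the number of loci, and those of SLC39A14 are the widest.

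SLC39A14 (ZIP14) imports zinc, iron and manganese, and its locus is on chromosome 8 (22367249 to 22434129). SLC39A14 was at 21.0, 20.8 and 9.64 FPKM in DMSO and at 22.2, 19.9 and 22.0 with BPA 0.25 nM. It was at 10.3, 20.8 and 20.5 with BPA 2500 nM and at 21.7 and 9.05 with E2. The values fell at 2 levels: 3 libraries, 1 each of DMSO, BPA 2500 nM and E2, were at 9.05 to 10.3 FPKM and the other 8 at 19.9 to 22.2, with none between. The SD within groups was 0.54 on the log2 scale, at percentile 98.0 of the tested loci, whose median was 0.10. The log2 change was 0.38 ± 0.38 (SE, adjusted p = 0.804) with BPA 0.25 nM, 0.02 (interval -0.84 to 0.88, adjusted p = 0.983) with BPA 2500 nM and -0.19 ± 0.43 (interval -1.15 to 0.78, adjusted p = 0.885) with E2. These intervals are too wide to show either a change or its absence. The change with BPA 0.25 nM was 0.03 once DMSO replicate 3 was left out and 0.55 without DMSO replicate 1. For BPA 2500 nM the change was -0.32 once DMSO replicate 3 was left out and 0.33 once BPA 2500 nM replicate 1 was. For E2 it was 0.40 without E2 replicate 2 and -0.78 without E2 replicate 1, so these values rest on single libraries.

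**Figure D4:**
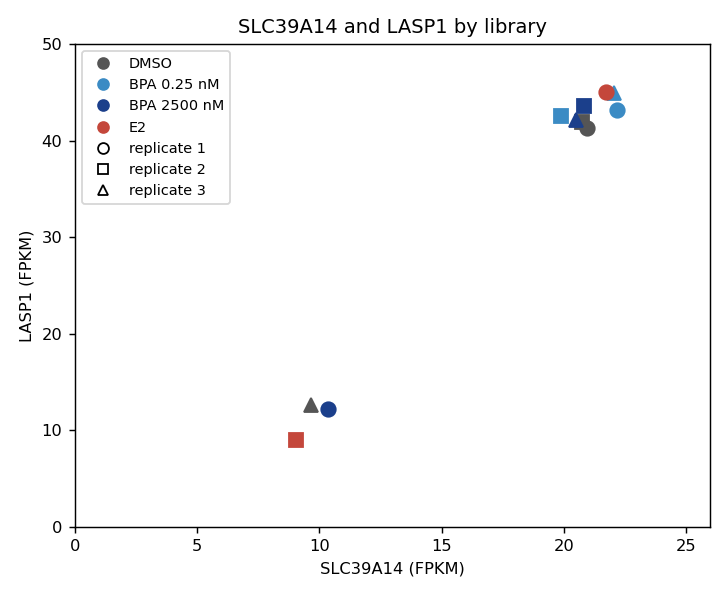
FPKM of SLC39A14 (x axis) against LASP1 (y axis) in the 11 libraries, coloured by group. The 3 libraries with the low level of SLC39A14 (DMSO replicate 3, BPA 2500 nM replicate 1 and E2 replicate 2) are also the 3 lowest for LASP1, at 8.97 to 12.6 FPKM, and the other 8 are at 41.27 to 45.02.

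The loci most like 3 of the genes over the 11 libraries were taken from 8967 loci that name 1 protein-coding gene, by Pearson r of log2(FPKM + 1). The libraries are of 4 groups, and an r is a description of these libraries only. SLC39A14 was most like LASP1 (r = 0.994), an actin-binding protein, then CNNM4 (0.918), a magnesium transport protein, and POLR2E (0.892), an RNA polymerase subunit. LASP1 was at 12.6 FPKM in DMSO replicate 3, 12.2 in BPA 2500 nM replicate 1 and 8.97 in E2 replicate 2. CNNM4 ranged only from 4.47 to 5.18 FPKM and POLR2E from 16.39 to 21.84, without the wide gap seen in SLC39A14 and LASP1. SLC30A1 was most like NETO2 (0.96), PARVA (0.932), a focal adhesion protein, and HSPD1 (0.926), the mitochondrial chaperonin. For MT2A the nearest were GRN (0.948), which encodes progranulin, RPS26 (0.916), a ribosomal protein, and PPP2R1A (0.906), the scaffold subunit of a protein phosphatase.

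Between the BPA doses, SLC30A1 and MTF1 stood higher and SLC39A10 lower at 2500 nM than at 0.25 nM, with no overlap of libraries. The log2 difference was 0.22 ± 0.07 (SE, interval 0.06 to 0.39, adjusted p = 0.524) for SLC30A1. For MTF1 it was 0.15 ± 0.06 (interval 0.03 to 0.28, adjusted p = 0.571) and for SLC39A10 -0.21 ± 0.09 (interval -0.42 to 0.00, adjusted p = 0.642). The metallothioneins gave -0.08 (MT2A, adjusted p = 0.851) and -0.06 (MT1X, adjusted p = 0.911), and both overlapped between doses. By limma 0 of 6 genes were called, beside 0.0657% of all loci, and 2 of 6 had an unadjusted p under 0.05, beside 7.81%. Non-overlap held for 3 of 6 genes, beside 16.7% of all loci.

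Between E2 and the BPA doses, the metallothionein MT2A had the lower mean with E2. It was 0.24 lower on the log2 scale with E2 than with BPA 0.25 nM (log2 difference -0.24, adjusted p = 0.326), and -0.16 was the difference from BPA 2500 nM. Against BPA 0.25 nM, MTF1 (0.18, adjusted p = 0.311) and SLC30A1 (0.30, adjusted p = 0.258) were higher with E2, without overlap. No gene of the 6 was called by limma against either dose, 0 of 6 each, beside 0.0493% of loci for BPA 0.25 nM and 0.041% for BPA 2500 nM. At an unadjusted p under 0.05 there were 3 of 6 (beside 12.6%) and 0 of 6 (beside 9.01%). Libraries did not overlap in 2 of 6 genes (beside 27.7%) and 1 of 6 (beside 23.7%).

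Of 10 other ZnT genes 5 were tested, and of 12 other ZIP genes 7. Among the ZIP genes left out, 2 lie on loci joined with other coding genes, whatever their level. The remaining ZnT and ZIP genes left out were too low or matched no locus by name. By limma 0 of the tested genes were called in each of the 6 comparisons, where 0.0164% to 1.3% of all loci were called. A count of 0 thus does not set the tested transporters apart from other genes. The median log2 change of the ZnT genes was -0.06 at the low BPA dose, -0.11 at the high dose and 0.03 with E2. That of the ZIP genes was 0.03, 0.02 and -0.01. The most abundant of the tested ZIP genes were SLC39A7 (mean 68.2 FPKM), which releases zinc from the endoplasmic reticulum, and SLC39A6 (10.6), a plasma membrane importer. Of the tested ZnT genes they were the organelle transporters SLC30A9 (16.9) and SLC30A5 (12.2). SLC30A9 was at 16.1 FPKM with BPA 2500 nM against 17.5 in DMSO (-0.11 ± 0.07 on the log2 scale, adjusted p = 0.403). SLC39A7 was 70.8 FPKM with BPA 0.25 nM against 67.1 in DMSO (0.08 ± 0.05, adjusted p = 0.671).

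**Figure D5:**
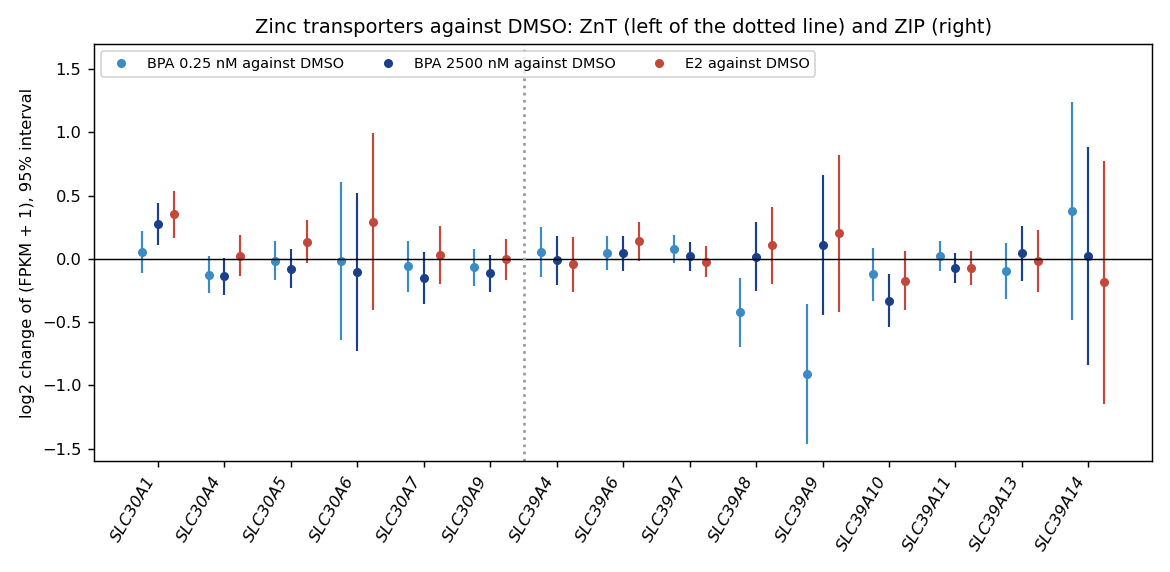
Log2 change against DMSO, with 95% intervals, of the tested ZnT genes (left of the dotted line) and ZIP genes (right), SLC30A1, SLC39A10 and SLC39A14 included. SLC30A1 stands above 0 with BPA 2500 nM and E2, and the intervals of SLC39A8 and SLC39A9 with BPA 0.25 nM lie below 0 (genes picked after their values were seen), with no adjustment for the number of loci.

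Other gene lists were also followed: copper handling (7 tested of 9) and iron and manganese handling (6 of 8). Metal and oxidative stress (7 of 10) and glucocorticoid response (7 of 10) were added, the latter since glucocorticoids raise metallothionein genes. With the transporters and MT1A, 40 such genes were tested, and 0 were called in any comparison by limma, where 0.0164% to 1.3% of all loci were called. At an unadjusted p under 0.05 there were 5 of 40 for BPA 0.25 nM, 6 for BPA 2500 nM and 4 for E2 against DMSO, beside 9.11%, 17.2% and 15.4% of all loci. Left out were 2 copper genes and 3 stress genes on loci joined with other coding genes, whatever their level. Of the tested copper genes, the most abundant were SOD1 (mean 125 FPKM), a copper and zinc enzyme, and SLC31A1 (15.4), the copper importer. In the iron list these were FTL (828) and FTH1 (133), the chains of the iron store ferritin. In the stress list they were NQO1 (156) and TXNRD1 (71.4), antioxidant enzymes, and in the glucocorticoid list ERRFI1 (184) and FKBP5 (20.6). Median log2 changes for the low BPA dose, the high dose and E2 were 0.01, -0.03 and -0.03 for copper, and 0.08, 0.10 and 0.02 for iron and manganese. They were 0.08, 0.04 and -0.02 for stress and -0.09, -0.11 and -0.20 for the glucocorticoid list. The glucocorticoid receptor NR3C1, named after its values were seen, was listed at 0.01 to 0.09 FPKM.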

How the data were processed

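RNA was measured in 11 libraries of IOSE80 cells. The authors deposited 1 FPKM value per locus and library, with HISAT, UMI-tools, StringTie and edgeR listed, without versions, in the submitters' processing notes. Those notes name hg19, but 74.8% of 14123 Ensembl loci have their GENCODE 29 start and end on GRCh38, so positions are on GRCh38. Depth and strand use are unknown. Loci that reached an FPKM of 1 in 2 libraries or more were tested on log2(FPKM + 1) with limma 3.58.1 in R 4.3.3 (statmod 1.5.0): 1 mean per group, all libraries, trend and robust settings, 7 residual degrees of freedom, two-sided, Benjamini-Hochberg within each of 6 comparisons, called at an adjusted p under 0.05. The code of the fit was checked on simulated data with independent noise at each locus. Changes were planted in 1 group only and were larger than those of MTF1, SLC30A1 and SLC39A10. The check therefore cannot tell how well changes of their size are found. All 9 genes are named, with the 2 most abundant tested genes of each other list. Also named are the 3 most alike loci of MT2A, SLC30A1 and SLC39A14 and the cell type markers. Genes outside that rule are said to be so. The genes and lists were chosen with earlier results of these data known. Alternatives were another pseudocount (0.1), filter, scaling, variance setting, sample set, a replicate block and leaving out each library. Tables came from pandas 2.3.3 and numpy 2.4.6 under Python 3.11.15, and plots from matplotlib 3.10.9.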

Additional observations from a re-analysis of the deposited data

How the results depend on the processing

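Counts of called genes of the 6 stayed at 0 under every alternative in 5 of the 6 comparisons (0 to 0 when each library was left out). For BPA 2500 nM against DMSO the count was 1, SLC39A10, without the E2 libraries, and 0 when any DMSO or BPA library was left out. Without E2, the estimated variance no longer holds the spread between the E2 libraries, while the log2 change stays at -0.33. Leaving out 1 E2 library leaves a group of 1, which adds nothing to that variance, so it is in effect the same fit. Calls over all loci in that comparison were 158, and 251 without the E2 libraries. They fell to 13 with only the 2 groups compared, and to between 32 and 83 when a DMSO or BPA library was left out. For E2 against DMSO, 51 calls over all loci became 2 with only the 2 groups compared. The shares of all loci called therefore move widely with the fit. Leaving out a library turned the direction of 12 log2 changes of single genes, none of which passed the test. Against DMSO and between doses these were MTF1 with BPA 0.25 nM against DMSO (-0.015 to 0.052), SLC39A14 with BPA 2500 nM (-0.324 to 0.333) and with E2 (-0.775 to 0.403), SLC39A10 with E2 (-0.358 to 0.015), and MT1X between BPA doses (-0.142 to 0.012). For E2 against BPA 0.25 nM they were SLC39A10 (-0.235 to 0.137) and SLC39A14 (-1.152 to 0.026). For E2 against BPA 2500 nM they were MT1X (-0.125 to 0.035), MTF1 (-0.002 to 0.053), SLC30A1 (-0.023 to 0.171), SLC39A10 (-0.028 to 0.344) and SLC39A14 (-0.797 to 0.381). Other small changes kept their direction but moved by over 1.5 times, such as MT2A with BPA 0.25 nM (0.086 to 0.227), BPA 2500 nM (0.034 to 0.106) and E2 (-0.156 to -0.039) against DMSO, and SLC30A1 with BPA 0.25 nM (0.015 to 0.133). The other settings run turned none. Whether the replicate numbers pair the samples is not known. Residuals of 15 same-numbered pairs correlated at -0.117 to 0.164, and 1 was over 0.1. Pairs with different numbers were not compared, so these values cannot decide it. With a replicate block, 0 of the 6 genes were called in every comparison, and over all loci 38 were called in place of 158 for BPA 2500 nM and 5 in place of 51 for E2. Under a filter of a mean FPKM of at least 5, MT1X, MTF1 and SLC30A1 had no value. Summing loci per gene was not run, since each gene had 1 locus. Limits: groups hold 2 or 3 libraries, read depth is unknown, and the precision of each value is known only from the spread between libraries.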

Other observations

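The genes in this section lie outside the naming rule and were picked after their values were seen. TFRC, the transferrin receptor that brings iron into cells, was at 29.2 ± 5.15 FPKM in DMSO, 38.4 ± 2.44 at the low BPA dose, 42.1 ± 0.965 at the high dose and 47.3 ± 4.74 with E2, and every treated library was above every DMSO library. By limma the log2 change was 0.40 (adjusted p = 0.396), 0.53 ± 0.11 (adjusted p = 0.0535) and 0.69 ± 0.12 (adjusted p = 0.0539). SLC39A8 (ZIP8), an importer of zinc and manganese, was at 5.20, 5.77 and 7.87 FPKM with BPA 0.25 nM and at 8.18 to 9.11 in DMSO (-0.42 ± 0.12, adjusted p = 0.429). It was not lower at the high dose (8.57 to 9.05 FPKM). SLC39A9, another ZIP transporter, was at 3.11, 6.12 and 3.18 with BPA 0.25 nM against 9.68, 5.82 and 10.1 in DMSO, where the libraries overlapped (-0.91 ± 0.25, adjusted p = 0.396). In the glucocorticoid list, KLF9 was 2.69 FPKM with BPA 2500 nM against 3.55 in DMSO (adjusted p = 0.0677), and TSC22D3 was 2.70 with BPA 2500 nM and 2.55 with E2 against 3.34 (adjusted p = 0.0857 and 0.0755). SLC7A11, the cystine importer, was 2.08 FPKM with BPA 2500 nM against 3.05 (adjusted p = 0.108), and the chaperone DNAJB1 42.9 against 34.5 (adjusted p = 0.133).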
